A study of Mus musculus with 2 samples.

Results

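Mir143, Mir145a and Mir145b are the 3 microRNA genes examined here, of 2202 in the deposited tables. They were picked as the rows whose Ensembl gene identifier maps to these symbols in GENCODE M21. The libraries were made from calf muscle (gastrocnemius) of females aged 25 days of B6CASTF1/J, an F1 hybrid of C57BL/6J with CAST/EiJ. They were 2 biological replicates of 1 group, per the labels, which name no treatment, so no condition was compared. The 2 females carry different numbers in the labels and yet 1 shared donor identifier, so an SD here is the spread between 2 libraries, which may or may not come from separate animals. Small RNA was sequenced, and a level is the count on the strand of the gene scaled to a library total of 1000000 (CPM).

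The microRNAs miR-143 and miR-145 are processed from a common primary transcript. In mouse smooth muscle, serum response factor and its coactivator myocardin switch this transcript on. The microRNAs repress regulators such as Klf4, Klf5 and Elk1, and are known for holding vascular smooth muscle in its contractile, non-dividing state. They are also present in pericytes and fibroblasts, so in whole muscle they are known mainly from vessel walls and connective tissue.

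Among reads assigned to a single microRNA gene, Mir143 was one of the most abundant genes of this muscle, Mir145a was counted at 1 read for every 35.3 of Mir143, and Mir145b was at the detection limit. Both abundant genes were about 2-fold higher in replicate 1 than in replicate 2. Their ratio to each other moved far less than either level did. The labels name a tissue and no cell type. A smooth muscle origin could not be checked against smooth muscle genes such as actins and myosins, because the tables hold microRNA genes only. The labelled tissue could be checked only loosely: all 10 listed genes of striated muscle reached 2 CPM in both libraries, led by Mir206, a microRNA of skeletal muscle. Of all 2202 genes, 324 reached that level, 3 of 6 listed epithelial genes among them, so it does not single out a tissue.

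In the mm10 assembly, Mir143 (ENSMUSG00000065445.3) spans chromosome 18 from 61649196 to 61649258 and Mir145a (ENSMUSG00000065592.2) from 61647825 to 61647894. Both lie on the reverse strand, with Mir145a 1301 bases downstream of Mir143. The long non-coding RNA gene Carmn, named as the host of this cluster, ends 366 bases upstream of Mir143 in GENCODE M21. RefSeq draws Carmn on GRCm38.p6 from 61645878 to 61665538, a span that holds both hairpins. Bvht, the long non-coding RNA gene Braveheart, ends 352 bases from Mir145a on the forward strand. No annotated GENCODE gene overlapped any of the 3 hairpins on either strand.

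Mir145b (ENSMUSG00000098366.1) is not part of that cluster in the assembly. It lies 7.37 Mb away on the same chromosome, from 69022199 to 69022273 on the reverse strand. Its hairpin of 75 bases shares at most 17 consecutive bases with the hairpin of Mir145a, which has 70 bases. None of the 3 hairpins shared a stretch of 22 bases with the transcript of any other GENCODE gene. This matters for the counts, because reads that aligned to several places, 69.1% ± 0.794 (SD, n = 2) of all reads, were given to no gene.

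The genes against which the cluster is set below include the following, shown with their mature microRNA from RefSeq (GRCm38.p6), 5′ to 3′, with the seed at bases 2 to 8 in capitals. They are shown to tell apart which of these microRNAs share a seed: miR-221-3p and miR-222-3p have the same one, and the others each have their own. Counts belong to whole hairpins, so the arm that was sequenced is not known.
miR-126a-3p: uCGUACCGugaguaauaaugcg
miR-206-3p: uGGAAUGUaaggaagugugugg
miR-21a-5p: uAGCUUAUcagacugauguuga
miR-214-3p: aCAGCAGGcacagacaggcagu
miR-221-3p: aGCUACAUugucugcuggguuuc
miR-222-3p: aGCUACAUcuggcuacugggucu

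Replicate 1 held 1573213 counts on microRNA genes and replicate 2 held 5429127, a 3.45-fold difference in depth. A count of 0 allows up to 3 counts, which is 1.91 CPM in replicate 1 and 0.553 CPM in replicate 2. The intervals given below are exact (Clopper-Pearson) 95% intervals. Like these limits they cover counting error only, since reads are not independent molecules.

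Mir143 had 200727 counts in replicate 1 and 321797 in replicate 2. Its level was 127590 CPM in replicate 1, against 59272 CPM in replicate 2, a mean of 93431 ± 48308 CPM (SD, n = 2). As a share of all microRNA-gene counts this was 12.8% in replicate 1 (interval 12.7 to 12.8) and 5.93% in replicate 2 (5.91 to 5.95). By counts of reads given to a gene, it was the highest in replicate 1 and the fourth in replicate 2. Genes with identical copies can be missed by this ranking, since reads aligned to several places were given to none.

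By mean level Mir143 was the third gene, after Mir378a at 98707 ± 6479 CPM and Mir126a, an endothelial microRNA, at 98348 ± 7099 CPM. The next genes down were Mir23a at 55454 ± 4874 CPM, Mir206 at 53673 ± 26600 CPM and Mir22 at 53408 ± 6044 CPM. Every one of these 5 means lay within 1 SD of that of Mir143, so the order around it is not resolved. In each library taken alone, Mir143 was above Mir23a and Mir22. It was above Mir378a and Mir126a in replicate 1 and below them in replicate 2, and above Mir206 in replicate 1 and below it in replicate 2.

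Mir145a had 5553 counts in replicate 1 and 9320 in replicate 2, which gave 3530 CPM in replicate 1 (interval 3438 to 3624) and 1717 CPM in replicate 2 (1682 to 1752). Its mean was 2623 ± 1282 CPM (SD, n = 2), in place 46 of all genes. The genes nearest to it in mean level were Mirlet7e, Mir98 and Mir382 above and Mir337, Mir99b and Mir376c below, between 2045 and 2883 CPM. All 6 means lay within 1 SD of that of Mir145a, so its place is not resolved either.

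Mir145b had 2 counts in replicate 1, or 1.27 CPM (interval 0.154 to 4.59), and 0 counts in replicate 2. Both libraries were thus at or under the limit that a count of 0 allows, and no fold between them is given. Within replicate 1, Mir145a had 2777 times the counts of Mir145b (interval 768 to 22932). Within replicate 2, Mir145a was at least 3107-fold higher than the 3 counts that a count of 0 allows Mir145b.

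**Figure D1:**
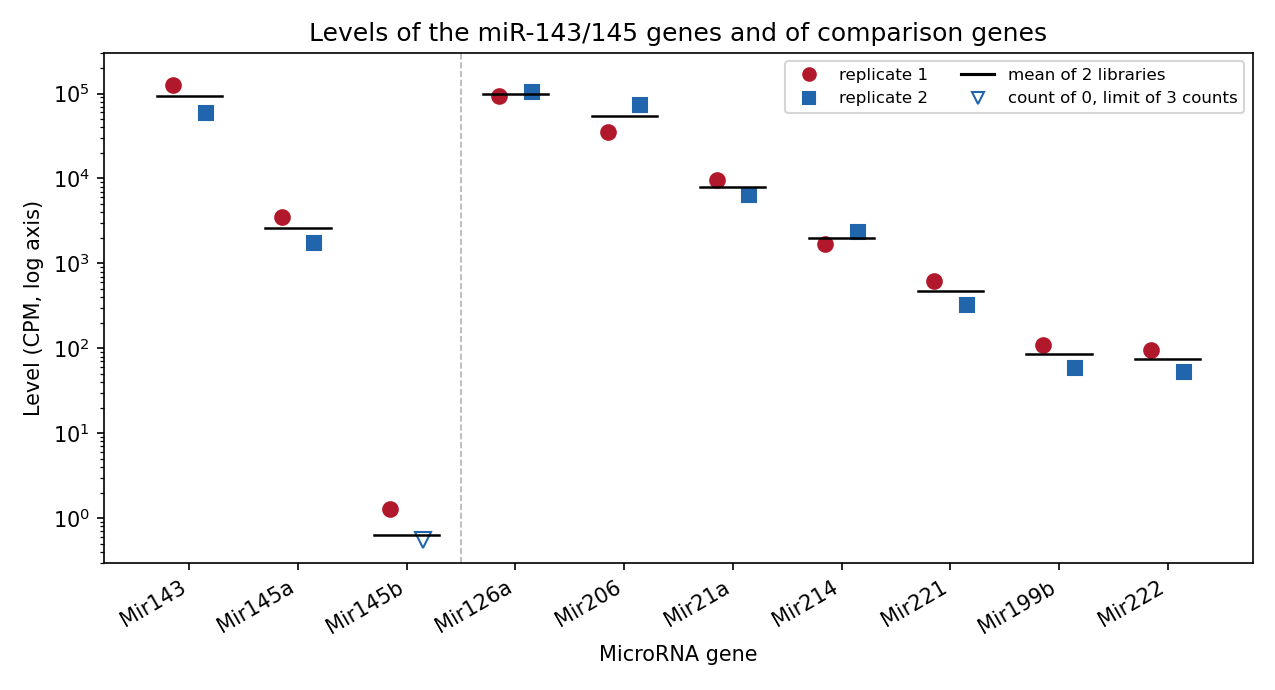
Levels of Mir143, Mir145a and Mir145b and of comparison genes, in CPM on a log axis, in replicate 1 (circles) and replicate 2 (squares), with the mean of the 2 libraries as a line. Mir143 lay at 127590 CPM in replicate 1 and 59272 CPM in replicate 2, Mir145a at 3530 CPM and 1717 CPM in the same order, and Mir145b at 1.27 CPM in replicate 1, with the open triangle marking the 0.553 CPM that a count of 0 allows in replicate 2.

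The ratio of the cluster partners is free of the library total, since both counts come from the same library. There were 36.1 counts of Mir143 for each of Mir145a in replicate 1 (interval 35.2 to 37.1) and 34.5 in replicate 2 (33.8 to 35.2), a mean of 35.3 ± 1.15 (SD, n = 2). Mir143 thus made up 97.3% of the counts of the pair in replicate 1 and 97.2% in replicate 2. The ratio was 1.05-fold higher in replicate 1 than in replicate 2 (log2 difference 0.07, interval 0.02 to 0.11). That difference passed a two-sided Fisher's exact test on the reads (p = 0.00764), which compares these 2 libraries and not conditions.

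Neighbouring microRNA genes elsewhere in the genome give the scale of such a ratio. Adjacent genes on the same strand at most 10 kb apart, each at 2 CPM or more in both libraries, formed 85 pairs besides Mir143 and Mir145a. The fold between partners was 5.76 at the median of the other pairs, against 35.3 for Mir143 and Mir145a, and 14 other pairs had a larger one. The other pairs include genes with several copies, whose counts can be low because reads aligned to several places were left out. By summed level Mir143 and Mir145a formed the most abundant pair. The next were Mir23a with Mir27a, Mir206 with Mir133b, Mir23b with Mir27b, and Mir127 with Mir434. In these the partners differed 42.7-fold, 1820-fold, 6.60-fold and 6.51-fold in the order named.

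Between the libraries, the partner ratio of Mir143 and Mir145a was steadier than that of most other pairs. Its log2 ratio differed by 0.07, against a median absolute difference of 0.22 over the other pairs, which ranged from 0.01 to 2.06. A smaller difference was seen in 10 of the 85. Among the 12 other pairs with both partners at 1000 CPM or more, a limit set after the values were seen, the median was 0.13. Of these 12, Mir497 with Mir195a at 0.02, Mir23b with Mir27b at 0.04 and Mirlet7f-2 with Mir98 at 0.01 differed less than Mir143 and Mir145a. The rest differed more. Over all other pairs, those closest to Mir143 and Mir145a in this measure were Mir222 with Mir221 at 0.07, Mir487b with Mir539 at 0.06, and Mir322 with Mir503 at 0.07. Depth also bears on the measure, since low counts scatter more, and pairs that share a gene are not independent.

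**Figure D2:**
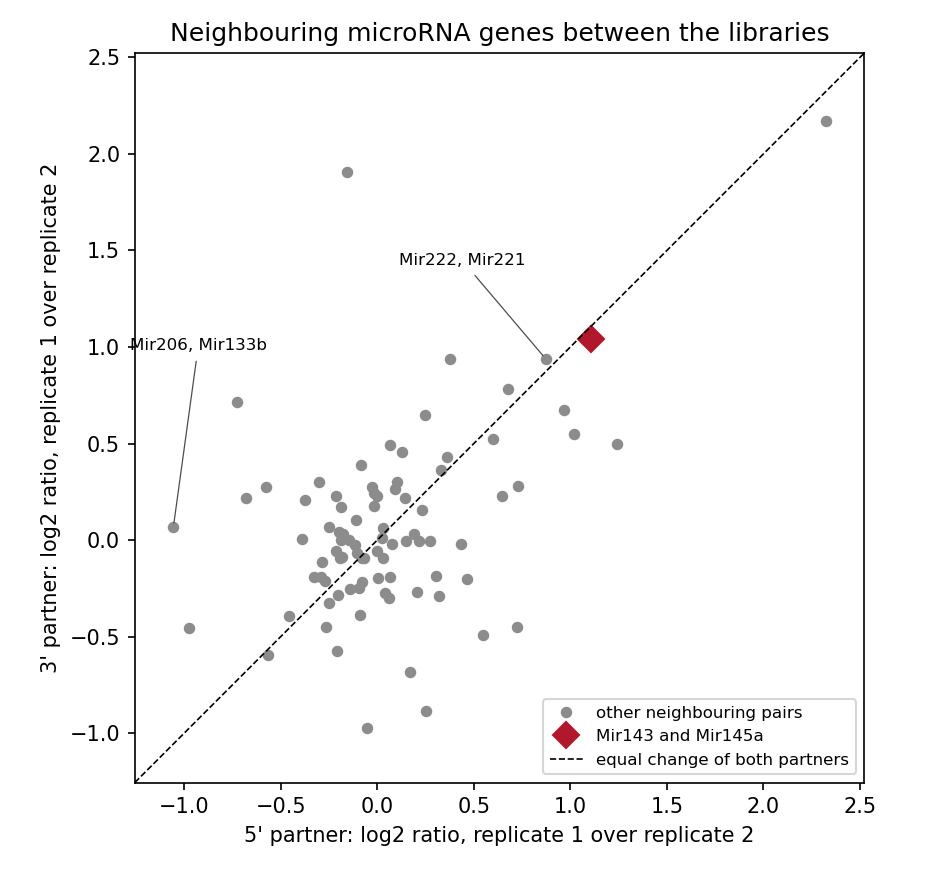
Log2 ratio of replicate 1 over replicate 2 for the 5′ partner (x axis) and the 3′ partner (y axis) of neighbouring microRNA genes, with the line of equal change. Mir143 and Mir145a (diamond) sit close to the line at 1.11 and 1.04, as Mir222 and Mir221 do at 0.87 and 0.94, whereas Mir206 and Mir133b lie off it at -1.06 and 0.07.

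Although their ratio hardly moved, the level of both partners differed between the libraries. Mir143 was 2.15-fold higher in replicate 1 than in replicate 2 (log2 ratio 1.11, interval 1.10 to 1.11). Mir145a was 2.06-fold higher (log2 ratio 1.04, interval 0.99 to 1.09). Both passed a two-sided exact binomial test on the reads with Benjamini-Hochberg adjustment at 0.05, with adjusted p-values too small for the computation to hold. In whole tissue, fewer cells of a type and less RNA per cell cannot be told apart.

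Reads differed in many genes at this depth, which sets how the call is to be read. Of 364 genes with at least 10 counts in all, 45.3% passed the same test, 30.2% as higher in replicate 1 and 15.1% as higher in replicate 2. A call by at least 2-fold in favour of replicate 1 was made for 9.62% of the tested genes, Mir143 and Mir145a included. A log2 ratio at least as high as that of Mir143 was found in 35 other tested genes. The spread of a log2 ratio between these libraries, from a common biological coefficient of variation of 24.6% estimated with edgeR, corresponded to an SD of 0.50. The log2 ratio of Mir143 was 2.21 times that SD, which came from the same 2 libraries. The 2 values are on unlike scales, since the SD was estimated after edgeR's TMM scaling and the ratio uses library totals. With TMM factors the log2 ratio of Mir143 was lower, at 0.93.

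The size of the difference depended on the scaling, and its direction did not. The median log2 ratio over all tested genes was 0.15, and Mir143 lay 0.96 above it and Mir145a 0.89. TMM factors moved every ratio by -0.18 and DESeq2 size factors by -0.20, and leaving the 3 genes out of the totals moved it by 0.11. The log2 ratio of Mir143 was then 0.93, 0.90 and 1.22, and that of Mir145a 0.86, 0.84 and 1.15. The 165 calls over all genes were split 110 to 55 in favour of replicate 1, against 70 to 104 with TMM factors, 65 to 107 with DESeq2 size factors and 143 to 33 without the 3 genes.

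Among the 20 genes with a mean of 10000 CPM or more, a limit set after the values were seen, the median log2 ratio was -0.06. On library totals, Mir143 and Mir206 were the 2 that differed by 2-fold or more, and they did so in opposite directions. With TMM or DESeq2 factors the log2 ratio of Mir143 was 0.93 or 0.90, which is under 2-fold. Mir206 had 34864 CPM in replicate 1, against 72482 CPM in replicate 2. There were thus 3.66 counts of Mir143 for each of Mir206 in replicate 1 and 0.818 in replicate 2. The ratio of Mir143 to Mir126a was 1.37 in replicate 1 and 0.573 in replicate 2, a 2.38-fold difference. The ratio to Mir378a, which lies 249.9 kb from Mir145a on the same strand of chromosome 18, was 1.36 in replicate 1 and 0.574 in replicate 2. The levels of Mir126a and Mir378a rest on strand-specific counting because each faces another annotated microRNA gene. Mir143 and Mir145a had the same counts whether or not strand was used, and no count on the opposite strand.

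**Figure D3:**
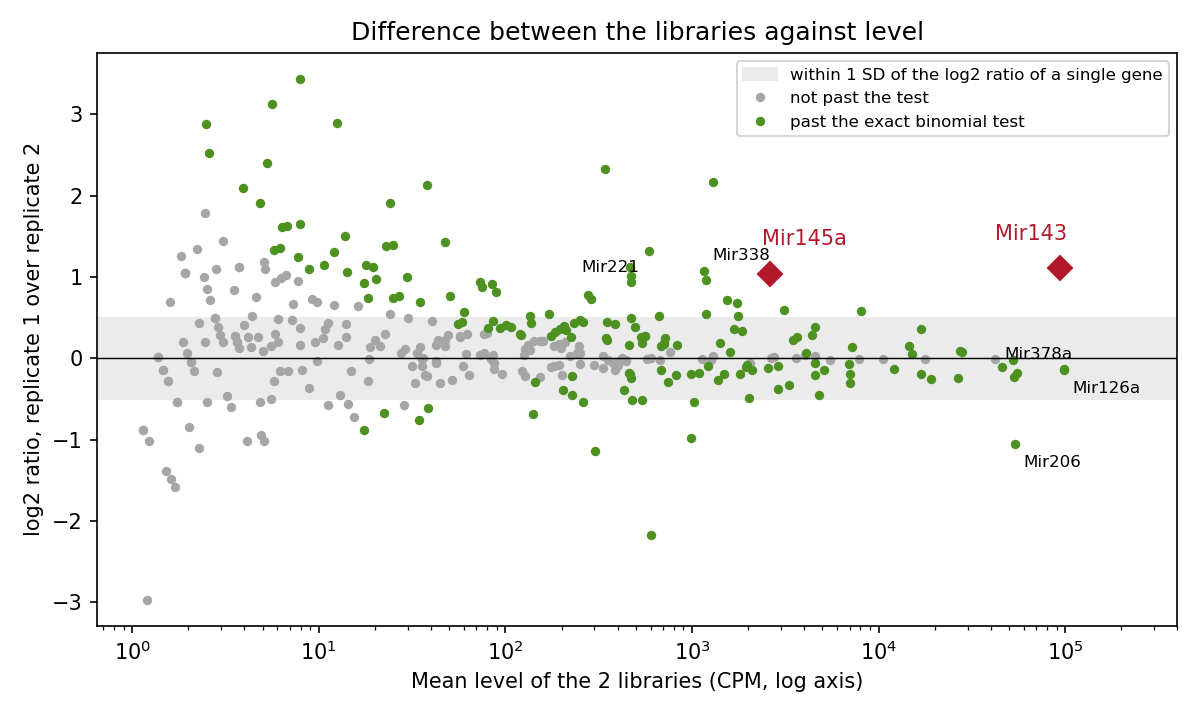
Log2 ratio of replicate 1 over replicate 2 against mean level in CPM (log axis) for the 364 tested genes. Mir143 and Mir145a (diamonds) lie at 1.11 and 1.04, above the grey band of 1 SD (0.50), while Mir126a and Mir378a, of like abundance to Mir143, lie inside it and Mir206 lies below it at -1.06. The ratios use library totals, whereas the SD was estimated after TMM scaling.

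The genes whose log2 ratio was nearest to that of Mir143, among 168 others with a mean of 100 CPM or more, were Mir708, Mir338, Mir15b, Mir106b and Mir221. Their log2 ratios were 1.13, 1.08, 1.02, 0.97 and 0.94 in that order. None lies on chromosome 18. This likeness rests on 2 libraries, and the 5 genes were far less abundant than Mir143, at 463 to 1183 CPM on average. The nearest microRNA gene on the other side of the cluster, Mir122, a microRNA of liver 3.60 Mb away, had 96.6 CPM in replicate 1, against 50.3 CPM in replicate 2, on 152 and 273 counts.

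Other microRNAs listed for smooth muscle or connective tissue were not all higher in replicate 1. The list is not specific to these tissues. It also holds the inflammation-linked Mir146, and Mir322 and Mir503, which are linked to muscle formation. Of 24 listed genes 23 matched a row and 22 could be tested; 13 were higher in replicate 1, 2 were higher in replicate 2 and 7 did not pass. Over all tested genes, the test favoured replicate 1 for 30.2% and replicate 2 for 15.1%. The 22 listed genes had a median log2 ratio of 0.41, beside 0.15 for all tested genes. The list was chosen with earlier results of these data known, so its split and median are a description and not independent evidence. The split was 11 to 5 with TMM factors, beside 70 to 104 over all genes, and 10 to 5 with DESeq2 size factors, beside 65 to 107. The list holds Mir24-1, Mir24-2, Mir26a-1, Mir26a-2, Mir29b-1, Mir29b-2, Mir199a-1, Mir199a-2 and Mir199b, whose mature microRNAs are encoded at more than 1 locus, so that their counts are uncertain.

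Mir21a, a microRNA linked to growth of vascular smooth muscle and to fibrosis, had 9619 CPM in replicate 1, against 6431 CPM in replicate 2, a log2 ratio of 0.58. Mir221 and Mir222, neighbours on the X chromosome that favour smooth muscle division, were also higher in replicate 1. Mir221 had 622 CPM in replicate 1, against 324 CPM in replicate 2 (log2 ratio 0.94). Mir222 had 96.6 CPM in replicate 1, against 52.9 CPM in replicate 2 (log2 ratio 0.87). Mir199b, of fibroblasts, passed too, at 111 CPM in replicate 1 against 58.8 CPM in replicate 2.

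Mir214, a microRNA of fibroblasts and other mesenchymal cells, went the other way. It had 1674 CPM in replicate 1, against 2355 CPM in replicate 2, a log2 ratio of -0.49 (interval -0.55 to -0.43). Its neighbour Mir199a-2, 5444 bases away on the same strand, had a log2 ratio of 0.55 and did not pass the test. That neighbour had only 45 counts in replicate 1 and 107 in replicate 2. There were 2.11 counts of Mir145a for each of Mir214 in replicate 1 and 0.729 in replicate 2, so the order of these 2 genes was exchanged between the libraries. The inflammation-linked Mir146 was the other listed gene higher in replicate 2, at 395 CPM in replicate 1 and 563 CPM in replicate 2.

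Markers of further cell types also differed between the libraries; the counts below stand beside calls in favour of replicate 1 for 30.2% of all tested genes, against 15.1% in favour of replicate 2. The erythroid genes Mir451a and Mir144 were both higher in replicate 1, with a sum of 2703 CPM in replicate 1, against 587 CPM in replicate 2. Of 6 epithelial genes, 4 were tested and all 4 were higher in replicate 1, or 3 with either TMM or DESeq2 factors. The 6 genes summed to 423 CPM in replicate 1, against 233 CPM in replicate 2. Most of this was Mir203, at 360 CPM in replicate 1 and 217 CPM in replicate 2. The other tested epithelial genes had at most 60 counts in a library. Of 7 neural genes, Mir338 of myelinating glia alone could be tested and was higher in replicate 1. Mir124a-1, Mir124a-2, Mir124a-3 and Mir9-2, typical of neurons, had a count of 0 in both libraries. Their mature microRNAs are encoded at several loci, so reads aligned to several of these would not be counted, and the 0 does not show that they were absent. The 10 striated muscle genes summed to 36393 CPM in replicate 1 and 75014 CPM in replicate 2, nearly all of it Mir206, and 3 of them were higher in replicate 1 against 5 in replicate 2, or 1 against 5 with TMM factors. Mir133a-1 and Mir133a-2, and likewise Mir1a-1 and Mir1a-2, share their mature microRNAs between loci, so their counts, this sum and the share of Mir206 in it are uncertain. Of 3 blood and immune genes, Mir142 and Mir223 were higher in replicate 1. Mir150 did not pass, or was higher in replicate 2 with either TMM or DESeq2 factors. The 3 genes summed to 1819 CPM in replicate 1 and 1213 CPM in replicate 2. These lists too were chosen with earlier results of these data known. The part of these cell types in the difference of Mir143 and Mir145a was not tested.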

How the data were processed

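Raw counts per microRNA gene were deposited by the authors, 1 table without a header per library, whose 3 columns hold, as judged from the values, reads regardless of strand, gene-strand reads and reads opposite to it. The assembly was mm10 per the labels and the annotation GENCODE M21 per the deposited readme files. Which aligner, counter and filters were used is not given in the sources used here. Rows tallying reads given to no gene stayed out of totals, and counts on microRNA genes made up 21.9% ± 0.832 (SD, n = 2) of all reads.

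CPM were gene-strand counts over the sum of all 2202 gene rows. Ratios used an offset of 0.5 counts. Genes with at least 10 counts in all were compared by an exact binomial test, two-sided, whose odds were the library totals, with Benjamini-Hochberg adjustment over all 364 tested genes. The test and the edgeR coefficient of variation were also run on simulated data, with outcomes not given here. For the test, the simulated counts held counting error only. They therefore do not show how it behaves when libraries differ by more than that. Tools were Python 3.11.15, scipy 1.17.1, pandas 2.3.3, R 4.3.3, edgeR 4.0.16 and DESeq2 1.42.0. Alternatives were TMM and DESeq2 scaling, other denominators, the either-strand column, other offsets, filters and pair distances, and each library left out.

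Named genes were the 3 members, list members, the 3 genes next above and below Mir143 and Mir145a in mean level, the 5 nearest to Mir143 in log2 ratio, the 5 most abundant neighbouring pairs, the 3 pairs nearest in difference between libraries, and the flanking microRNA genes. Members and lists were chosen with earlier results of these data known.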

Additional observations from a re-analysis of the deposited data

How the results depend on the processing

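Of 56 alternative values, 51 kept their direction, their side of the threshold or a set range, such as the spread between the libraries. That tally does not measure robustness. With 2 libraries, the value without 1 of them always lies within 1 SD of the mean of both. The difference between libraries in the partner ratio was counted as kept, and the medians over neighbouring pairs as moved, without a rule. With all aligned reads as denominator, the mean level was 21909 CPM for Mir143 and 615 CPM for Mir145a, by construction, since that total also holds the reads given to no gene. The median absolute difference between libraries within neighbouring pairs was 0.20 for pairs within 1 kb, which leave out Mir143 and Mir145a, 0.22 within 50 kb, and 0.20 at 10 CPM or more. Leaving out each library in turn gave 59272 to 127590 CPM for Mir143, 1717 to 3530 CPM for Mir145a, 0 to 1.27 CPM for Mir145b, and a log2 ratio of Mir143 over Mir145a of 5.11 to 5.18. The log2 ratio of Mir143 between libraries spanned 0.90 to 1.22 over the alternatives and that of Mir145a 0.84 to 1.15. Calls over all genes numbered 152 to 176, against 165.

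No ratio between libraries was computed for Mir145b, nor one to Mir145a without replicate 1, because its counts were 2 and 0. No paired analysis was possible because there was 1 group. With 2 libraries, a difference between them has no further replicate, and depth limits only Mir145b among the 3 genes.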
